A study of Mus musculus with 92 samples.

Results

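The genes of the synaptonemal complex and of the chromosome axis it is built on were examined in chromatin immunoprecipitation followed by sequencing (ChIP-seq) of mouse germline and pluripotent cells in culture. The 9 genes were taken by symbol, out of 21887 protein-coding genes of a RefSeq table: Sycp1, Syce1, Syce2, Syce3, Tex12, Sycp2, Sycp3, Hormad1 and Hormad2. For each gene, the peaks of all 30 deposited peak lists were counted in a window made of the gene body and 10 kb to either side. The study asked where cohesin with the subunit STAG3 sits in mitotic germ cells, beside cohesin with STAG1 or STAG2 and beside CTCF, the protein at which cohesin often stops on DNA.

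In meiosis, homologous chromosomes are joined along their length by the synaptonemal complex, a ladder-like protein structure. Its sides are the chromosome axes, which hold cohesin together with SYCP2 and SYCP3, and its rungs are SYCP1 dimers, held together in the middle by the central element proteins SYCE1, SYCE2, SYCE3 and TEX12. HORMAD1 and HORMAD2 mark axes that are not yet joined. STAG3 is best known as the cohesin subunit of meiotic axes. In stem cells these genes are mostly silent, and several of them are known targets of repressors that work at germline promoters.

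Wild-type lists for STAG1 and STAG2 covered 5 cell types. Embryonic stem cells, labelled ESC, their epiblast-like derivatives, labelled EpiLC, and induced cells that resemble primordial germ cells, labelled d2PGCLC and d4c7PGCLC, were of the BVSC line BDF1-2-1, which carries Blimp1-mVenus and Stella-ECFP reporters. Germline stem cells (GSC), which are spermatogonial stem cells in culture, were of another line, AAG, so cell type and line cannot be told apart for them. The cells of both PGCLC stages were positive for Blimp1-mVenus by cell sorting, and those of the GSC were positive for AAG. There were 2 STAG1 lists per cell type, 2 STAG2 lists each for ESC and EpiLC, and 3 STAG2 lists each for d2PGCLC, d4c7PGCLC and GSC. STAG3 had 3 lists, all from wild-type GSC. CTCF had 1 list, called on pooled replicates, for each of 4 mutant GSC genotypes: Stag3KO, Stag2Stag3dKO (Stag1-only), Stag1Stag3dKO (Stag2-only) and Stag1Stag2dKO (Stag3-only). No CTCF list of wild-type cells was used here, and the number of mutant clones is not given in the sources used here. Peak lists hold no expression values, so the labelled cell types could not be checked against markers, and whether any of the 9 genes was transcribed is not known from these files.

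The lists differed in length, and the sequencing depth behind them is unknown. They held 9641 to 42013 peaks for STAG1, 13698 to 84904 for STAG2, 12832 to 39681 for STAG3 and 39639 to 43877 for CTCF. GSC had the shortest STAG1 and STAG2 lists. In GSC, STAG3 replicate 1 (12832 peaks, against 38631 and 39681) and STAG2 replicate 2 (13698 peaks, against 25021 and 25979) were much shorter than their partners. The main GSC counts are given with and without them. A window without a peak is one in which none was called, and fewer occupied cells cannot be told apart from weaker binding per cell.

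The promoters are described here because STAG3 peaks lay at the start of all 9 genes in at least 1 GSC list. The same was true of 55.4% of all genes with a promoter window. A promoter window here is the stretch from 250 bases before to 50 after a start in the RefSeq table (GRCm38.p6). All 9 genes had such a window, 12 windows in all, and 17492 of the 21887 protein-coding genes had at least 1. Searched on both strands, CACGTG, the E-box read by factors of the MYC and MAX family, was found in the windows of 5 of the 9 genes and of 8.91% of all genes. GCGGGA, the core of E2F sites, was found in 5 of 9 and in 28.4% of all genes. The same 5 genes, Sycp1, Sycp3, Syce2, Tex12 and Hormad1, held both, as did 3.57% of all genes. Matches of the motifs do not overlap in the stretches shown, and a match is a description of the sequence, not a binding site. The motifs were chosen with the gene group known. The 250 bases before the start are shown for 4 of these genes, 5′ to 3′ on the strand of the gene, with CACGTG and GCGGGA in capitals. In Sycp1, GCGGGA lies just after the start and is outside the stretch shown. The stretches are chr3:102936101-102936350 (minus strand) for Sycp1, chr10:88459337-88459586 (plus) for Sycp3, chr9:50561269-50561518 (minus) for Tex12 and chr3:95559427-95559676 (plus) for Hormad1.
Sycp1: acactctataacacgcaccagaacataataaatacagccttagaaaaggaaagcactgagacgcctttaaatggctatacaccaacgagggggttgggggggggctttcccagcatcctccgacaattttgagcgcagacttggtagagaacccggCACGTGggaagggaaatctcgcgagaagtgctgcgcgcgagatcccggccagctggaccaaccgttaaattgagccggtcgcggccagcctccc
Sycp3: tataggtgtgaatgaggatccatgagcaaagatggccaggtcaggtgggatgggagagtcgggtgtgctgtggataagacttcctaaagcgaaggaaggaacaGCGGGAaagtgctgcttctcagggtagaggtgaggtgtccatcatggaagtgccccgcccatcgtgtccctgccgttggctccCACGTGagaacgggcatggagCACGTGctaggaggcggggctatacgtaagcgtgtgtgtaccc
Tex12: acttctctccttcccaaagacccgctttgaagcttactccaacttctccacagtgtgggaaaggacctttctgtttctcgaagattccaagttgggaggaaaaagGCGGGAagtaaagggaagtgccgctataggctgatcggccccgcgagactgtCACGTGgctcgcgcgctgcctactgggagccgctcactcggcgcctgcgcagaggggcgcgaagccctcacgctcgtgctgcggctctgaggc
Hormad1: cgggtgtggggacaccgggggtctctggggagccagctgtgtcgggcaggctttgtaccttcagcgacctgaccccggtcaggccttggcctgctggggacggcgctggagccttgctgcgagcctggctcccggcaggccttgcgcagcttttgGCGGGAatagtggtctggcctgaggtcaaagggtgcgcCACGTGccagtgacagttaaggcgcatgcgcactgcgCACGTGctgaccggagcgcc

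Sycp2 was the only one of the 9 genes whose window held a match to the 12-base CTCF core, which 0.652% of all genes had. The match lies at chr2:178407743-178407754, inside the stretch chr2:178407734-178407763 (minus strand) shown here with the match in capitals. It is shown because the summits of the CTCF peaks fell beside it.
Sycp2: cggcacagcGCCCCCTGCTGGcaggcggtt
The summits of the 4 CTCF peaks were 5 to 12 bp from this match. Those of the 3 STAG3 peaks were 3, 4 and 88 bp away, those of the 8 STAG2 peaks 35 to 106 bp and those of the 6 STAG1 peaks 51 to 99 bp.

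In GSC, STAG3 peaks were called at the starts of all 9 genes, STAG2 peaks at 3 and STAG1 peaks at 1, counting any list, while the starts of many other genes also carried STAG3. A peak at the start means 1 that overlaps the promoter window by at least 1 bp, a measure added after the data had been seen. With STAG3, 9 of 9 genes had such a peak in at least 1 of 3 lists, where 55.4% of all genes with a window did, and 5 of 9 had it in at least 2 lists (Sycp1, Sycp2, Syce2, Hormad1 and Hormad2), against 42.6% of all genes. With GSC STAG2, 3 of 9 had it in at least 1 of 3 lists (Sycp2, Tex12 and Hormad2), against 27.3% of all genes, and Sycp2 alone, 1 of 9, in at least 2, against 12.8%. With GSC STAG1, Sycp2 had it in 1 of 2 lists, against 2.95% of all genes, and 0 of 9 in both, against 1.83%. STAG3 at the start with no STAG1 or STAG2 peak there in any GSC list was found for 6 of 9 genes when 1 STAG3 list was asked for, against 29% of all genes, and for 3 of 9 (Sycp1, Syce2 and Hormad1) when 2 were, against 19.5%. Without the short STAG3 replicate 1, these counts were again 6 and 3, against 28.9% and 18.8% of all genes, and without the short STAG2 replicate 2 also 6 and 3, against 29.4% and 19.8%. Among these genes, Syce2 had a GSC STAG2 replicate 1 peak in the same merged site as its STAG3 peaks, outside the promoter window. No test was made, because 3 lists against 3 cannot give a two-sided exact permutation p under 0.1. The share in at least 2 lists was near that of all genes.

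The count in at least 2 STAG3 lists rested on replicates 2 and 3 and not on the short replicate 1. STAG3 replicate 1 had peaks at the starts of 2 of the 9 genes, Sycp1 and Sycp2, where 16.0% of all genes had one, and replicates 2 and 3 each had 7 of 9, where 47.8% and 48.9% of all genes did. Without replicate 1, the count in at least 2 lists was still 5. Without replicate 2 or without replicate 3 it was 2. These counts with 1 list left out lack a share of all genes and are read no further. With each GSC list reduced to its 9641 peaks of highest fold enrichment, the count was 2 for STAG3 in at least 2 lists and 3 in at least 1, against 10.3% and 21.5% of all genes. When the summit itself had to lie in the promoter window, the counts were 3 and 5, against 19.0% and 39.3%. Within 1 kb to either side of the start, the STAG3 counts were 6 and 9, against 52.0% and 61.3% of all genes. Those of GSC STAG2 were then 1 and 4, against 18.6% and 34.5%.

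**Figure D1:**
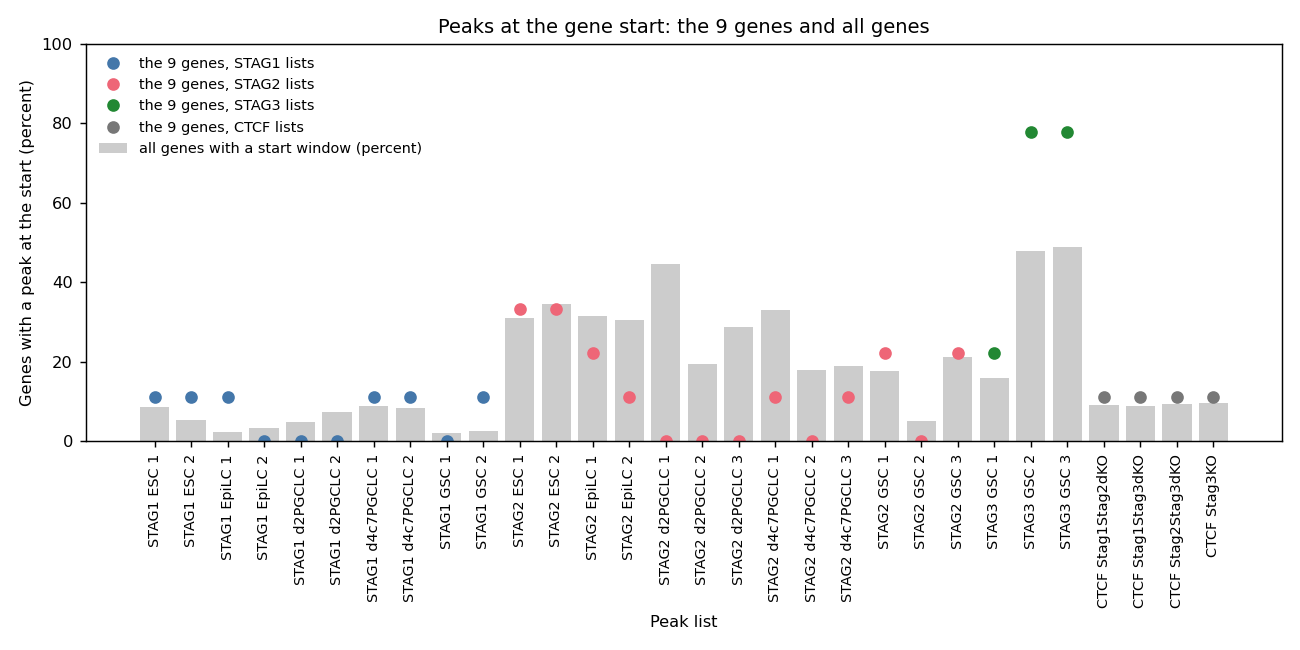
Percent of genes with a peak at the gene start (vertical axis) in each of the 30 lists (horizontal axis). Grey bars are all genes with a promoter window and dots are the 9 genes; GSC STAG3 replicates 2 and 3 hold 7 of 9 genes each, above the bars at 47.8% and 48.9%, while d2PGCLC STAG2 holds 0.

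In the other cell types, peaks at the starts were found at 0 to 3 of the 9 genes in at least 2 lists of a protein. STAG2 had them in at least 2 lists at 3 of 9 genes in ESC (Sycp2, Syce1 and Syce2), against 26.5% of all genes. In EpiLC and in d4c7PGCLC it had them at 1 of 9, Sycp2, against 25.2% and 21.6% of all genes. In d2PGCLC it had them at 0 of 9 genes, against 29.7% of all genes, and none of the 3 lists held a peak at any of the 9 starts. STAG1 had them in both lists at Sycp2, 1 of 9, in ESC and d4c7PGCLC, against 5.14% and 6.97% of all genes, and at 0 of 9 in EpiLC and d2PGCLC, against 2% and 4.68%. CTCF had a peak at the start of Sycp2, 1 of 9, in all 4 genotypes, against 7.99% of all genes.

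**Figure D2:**
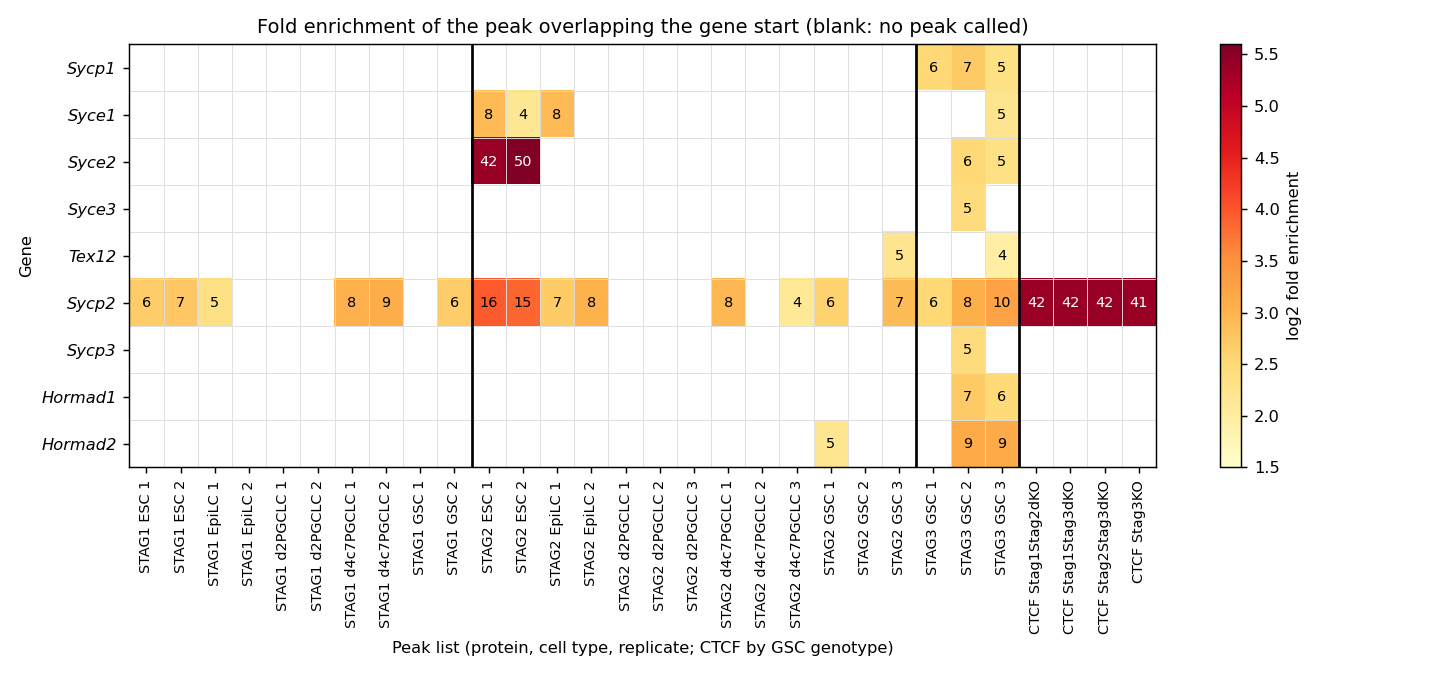
Fold enrichment given by the authors for the peak at the gene start, rounded, for the 9 genes (rows) in the 30 lists (columns); colour is its log2 and blank cells hold no peak. The Sycp2 row is filled in 21 lists including all 4 CTCF lists, and the STAG3 columns hold entries for every gene.

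SYCP1 forms the transverse filaments of the complex, and its gene carried a STAG3 peak at the start in all 3 GSC lists, as did that of Sycp2. Sycp1 lies at chr3:102818499-102936100 on the minus strand. The authors' fold enrichment at its start was 5.75, 6.63 and 5.08 in STAG3 replicates 1, 2 and 3. These values were larger than those of 41.7%, 65.7% and 37.5% of the peaks in the same lists. The summits lay 124 bp and 367 bp after the start in replicates 1 and 2 and at -68 bp in replicate 3. No STAG1, GSC STAG2 or CTCF list had a peak at this start. The STAG3 lists had no other peak in the window, so each held 1.

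Most STAG2 peaks of Sycp1 lay in the gene body, away from the start. The exception was a peak of EpiLC STAG2 replicate 2 with a fold of 3.87, in the same merged site as the STAG3 peaks but outside the promoter window. ESC held 4 and 3 STAG2 peaks in the window, EpiLC 5 and 6, d2PGCLC 3, 0 and 1, d4c7PGCLC 0 in each of 3 lists, and GSC 1, 0 and 0. STAG1 had 1 and 0 in ESC, 0 and 2 in EpiLC, 0 and 0 in d2PGCLC, 0 and 1 in d4c7PGCLC and 0 and 0 in GSC. The window thus held most of its peaks in STAG2 lists of ESC and EpiLC, which did not overlap the other groups except for 1 d2PGCLC list. The site held by the most lists was in the gene body, 93.55 kb after the start, with 6 STAG2 and 2 STAG1 lists and a highest fold of 9.81. Another, at 87.23 kb, was held by 6 STAG2 lists and no other.

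SYCE1 is a central element protein that binds SYCP1, and its gene was free of STAG1 and CTCF peaks. Syce1 lies at chr7:140777229-140787854 on the minus strand. STAG2 lists held 1 and 3 peaks in ESC, 3 and 2 in EpiLC and 1, 0 and 1 in d2PGCLC, and 0 in all 6 lists of d4c7PGCLC and GSC. STAG3 lists held 0, 1 and 1. At the start, ESC STAG2 had folds of 7.56 and 4.46, EpiLC STAG2 replicate 1 had 7.62 and GSC STAG3 replicate 3 had 4.69. Peaks of EpiLC STAG2 replicate 2 and STAG3 replicate 2 lay within the same merged site but outside the promoter window.

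SYCE2 builds the backbone of the central element with TEX12, and its gene had a strong STAG2 site just upstream of the promoter window. Syce2 lies at chr8:84872111-84887446 on the plus strand. STAG2 summits in 11 lists lay 488 to 587 bp upstream, with folds of 41.9 and 49.9 in ESC, 39.9 and 36.3 in EpiLC, 31.1, 20.2 and 30.6 in d2PGCLC, 25.5, 22.5 and 16.8 in d4c7PGCLC and 7.04 in GSC replicate 1. GSC STAG2 replicates 2 and 3 had no peak there. STAG1 summits in 5 lists lay 470 to 552 bp upstream, with folds of 5.15 to 18.3. CTCF summits of all 4 genotypes lay 502 to 583 bp upstream, with folds of 9.38 to 14.2.

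STAG3 peaks near the Syce2 start fell in the same merged site as these upstream peaks, but their summits lay apart from the upstream summits. In replicate 3 the summit was at -76 bp, with a fold of 5.08, and in replicate 2 a pair of peaks had summits at -338 and 489 bp, with folds of 4.12 and 5.72. Replicate 1 had none. The 2 ESC STAG2 peaks counted at the Syce2 start reached the promoter window with their edge only, their summits lying at -488 and -526 bp. Neither summit of STAG3 replicate 2 lay in a promoter window of Syce2. A site 21.70 kb after the start, at the start of the neighbour Gcdh, held STAG3 in all 3 lists with folds of 5.11, 8.24 and 10.8. A site in the gene body at 6.42 kb held STAG1 in 5 lists of 4 cell types, with folds of 3.71 to 8.73, and no other protein. The Syce2 window held 3 and 1 STAG2 peaks in ESC, 3 and 2 in EpiLC, 2, 1 and 2 in d2PGCLC, 2, 1 and 2 in d4c7PGCLC and 1, 0 and 0 in GSC, and 1, 3 and 2 STAG3 peaks.

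SYCE3 and TEX12 complete the central element, and their genes had few peaks. Syce3 (chr15:89390174-89410503, minus strand) had 1 STAG2 peak in each ESC list and 3 in each EpiLC list, 1 in STAG3 replicate 2 and none in any other list. The STAG3 peak was at the start, with a fold of 5.49. Tex12 (chr9:50557148-50561268, minus strand) had 2 peaks in EpiLC STAG2 replicate 2 and 1 each in d2PGCLC STAG2 replicate 1, GSC STAG2 replicate 3 and STAG3 replicate 3. Its start peaks were those of GSC STAG2 replicate 3, with a fold of 4.68, and STAG3 replicate 3, with a fold of 3.91. At both genes the start peaks were thus held by 1 STAG3 list each.

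SYCP2 organises the axis with SYCP3, and its gene was the member whose promoter window was overlapped by a peak in the most lists. Sycp2 lies at chr2:178345295-178407776 on the minus strand. The site at the start was held by 21 lists: 6 of STAG1, 8 of STAG2, 3 of STAG3 and 4 of CTCF. The CTCF folds were 41.5 in Stag1Stag2dKO, 41.8 in Stag1Stag3dKO, 41.9 in Stag2Stag3dKO and 41.2 in Stag3KO. They exceeded those of 99.68% to 99.90% of the peaks in their lists. The CTCF peak at this start was thus called in all 4 genotypes, and with 1 pooled list each no replicate error can be given.

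STAG peaks at the Sycp2 start were found in 4 of the 5 cell types, and folds of different lists are not compared. STAG3 had 5.75, 8.46 and 9.58 in replicates 1, 2 and 3, GSC STAG2 had 6.11 and 7.49 in replicates 1 and 3, and GSC STAG1 had 6.43 in replicate 2. ESC STAG2 had 15.6 and 14.5, EpiLC STAG2 6.55 and 8.15, and d4c7PGCLC STAG1 8.35 and 8.56. None of the 5 d2PGCLC lists had a peak at this start. The STAG3 folds exceeded those of 41.7%, 82.1% and 87.3% of the peaks of their lists.

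Beyond the other end of Sycp2, 69.78 kb after the start, a CTCF site was held by 24 lists of all 5 cell types. It had folds of 33.6 and 34.4 in ESC STAG2, 27.5, 27.8 and 24.5 in d2PGCLC STAG2 and up to 24.6 in the CTCF lists, and no STAG3 list held it. A further CTCF site at 68.52 kb was held by 16 lists, 3 of STAG1, 9 of STAG2 and 4 of CTCF, again without STAG3. STAG3 had its other Sycp2 peaks at -6.95 kb, upstream of the gene and near the starts of Fam217b and Ppp1r3d, in replicates 2 and 3 with folds of 5.26 and 5.08. This place was also held by 5 STAG2 lists and 1 CTCF list. In the whole window, STAG1 had 3 and 2 peaks in ESC, 1 and 1 in EpiLC, 1 and 1 in d2PGCLC, 3 and 3 in d4c7PGCLC and 0 and 2 in GSC. STAG2 had 4 and 4, 3 and 3, 3, 2 and 2, 3, 1 and 3, and 3, 0 and 3 in the same order of cell types, and STAG3 had 1, 2 and 3.

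SYCP3, the other axis protein, had a gene with few peaks. Sycp3 lies at chr10:88459587-88473236 on the plus strand. STAG2 had 1 peak in each ESC list and in d4c7PGCLC replicate 1, all in a site downstream of the gene at 23.52 kb, and 0 in the other STAG2 lists. STAG1 and CTCF had none. STAG3 had 0, 2 and 1 peaks: replicate 2 had one at the start with a fold of 5.49, and replicates 2 and 3 shared a site upstream, at -2.71 kb, with folds of 4.35 and 4.11. That upstream site was held by no other list.

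**Figure D3:**
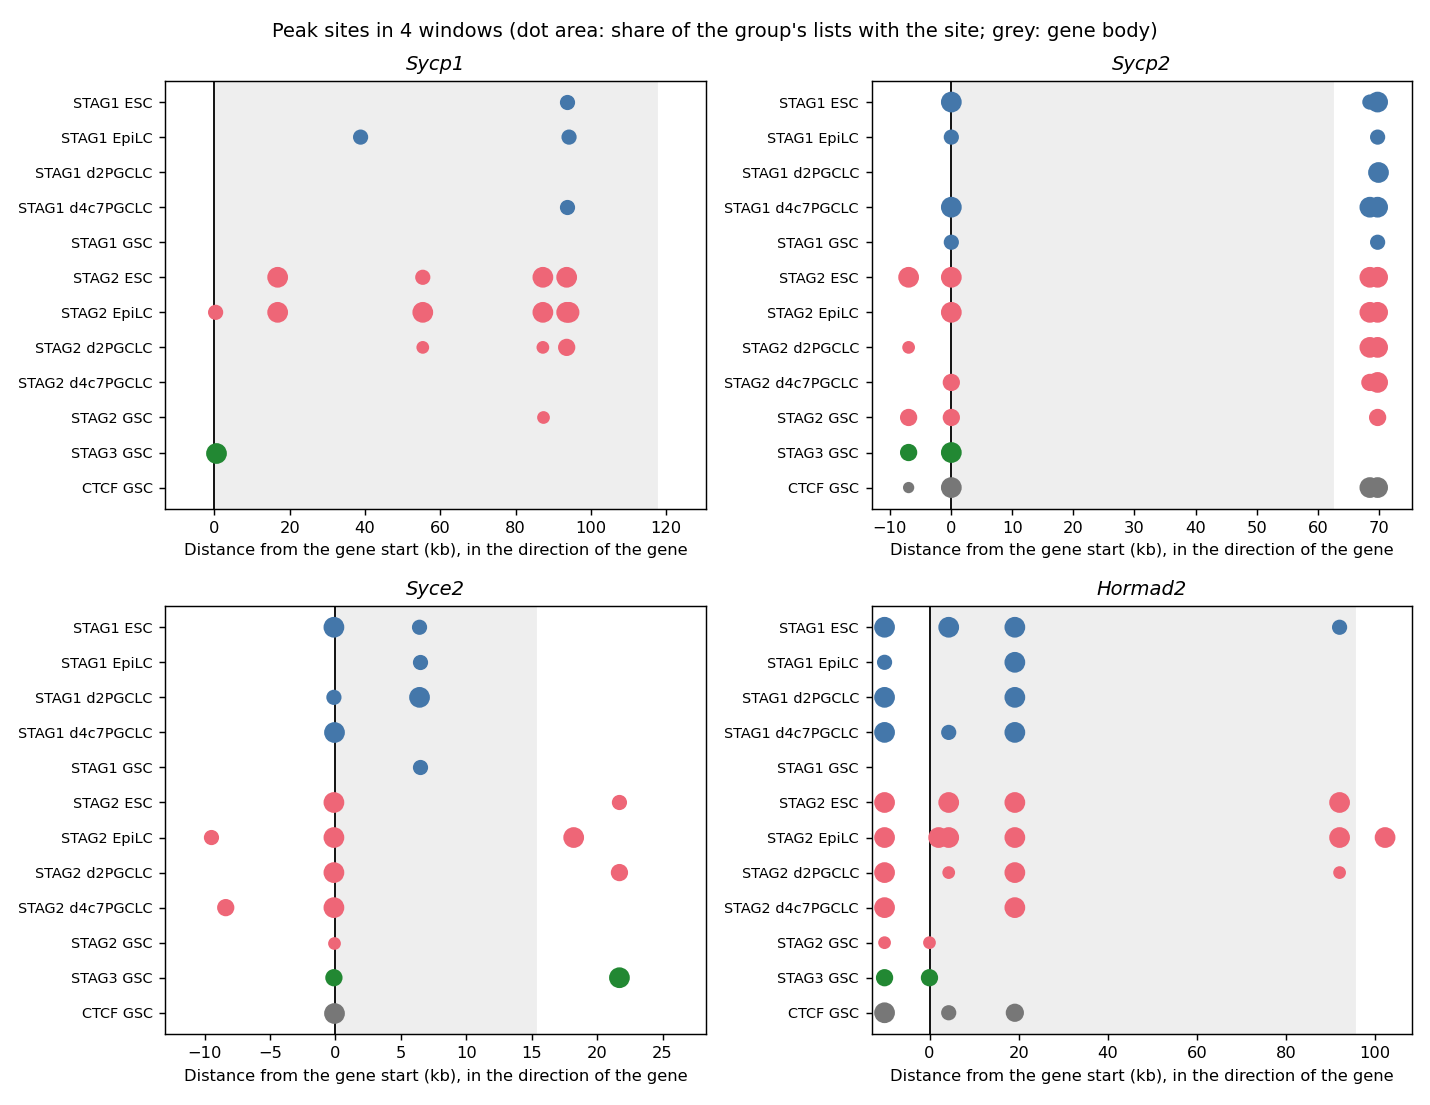
Peak sites in the windows of Sycp1, Sycp2, Syce2 and Hormad2 by distance of the site's middle from the gene start in kb (horizontal axis), for each protein and cell type (rows; CTCF pools the 4 GSC genotypes). Dot area is the share of the group's lists that hold the site and grey is the gene body; STAG3 dots lie at the 4 starts and at -6.95 kb (Sycp2), 21.70 kb (Syce2) and -10.10 kb (Hormad2), and the Sycp2 sites at 68.52 and 69.78 kb and the Hormad2 site at 19.15 kb have none.

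HORMAD1 recruits the machinery that monitors synapsis, and its gene had a STAG3 peak at the start in GSC replicates 2 and 3 and in no other list. Hormad1 lies at chr3:95559677-95587863 on the plus strand. The folds at its start were 6.63 and 5.67, above those of 65.7% and 50.6% of the peaks in the same lists, and the summits lay at -110 and -43 bp from the start. The strongest peaks of the window were in the gene body, 10.25 kb after the start, where EpiLC STAG2 had folds of 39.7 and 16.4, ESC STAG2 13.5 and 12.5 and ESC STAG1 4.79 and 4.1. No GSC list held that site. Window counts were 1 and 1 for STAG1 in ESC and 0 in the other 8 STAG1 lists. STAG2 had 2 and 2 in ESC, 2 and 3 in EpiLC, 0, 0 and 1 in d2PGCLC, 0 in d4c7PGCLC and 1, 0 and 0 in GSC, and STAG3 had 0, 2 and 1.

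HORMAD2 acts with HORMAD1 on unjoined axes, and its gene showed the widest gap between GSC and the other cell types. Hormad2 lies at chr11:4345801-4441198 on the minus strand, with no other protein-coding gene in its window. STAG1 had 4 and 3 peaks in ESC, 1 and 1 in EpiLC, 2 and 1 in d2PGCLC, 2 and 3 in d4c7PGCLC and 0 and 0 in GSC. STAG2 had 4 and 4, 6 and 6, 2, 2 and 4, 2, 2 and 2, and 2, 0 and 0 in the same order, and STAG3 had 0, 1 and 2. Every STAG1 or STAG2 list outside GSC held at least 1 peak, whereas 4 of the 5 GSC lists held 0. The GSC lists were the shortest of either protein, and 50.4% of all tested genes were called lower in GSC.

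Among the Hormad2 sites, an inner and an upstream one were held by the most lists. The sites at 102.25, 92.04, 4.31 and 2.06 kb after the start were also without a GSC STAG peak. The site 19.15 kb after the start was held by all 18 STAG1 and STAG2 lists outside GSC, with folds up to 52.3 in ESC STAG2 replicate 2, and by no GSC STAG list, STAG3 included. CTCF was called there in Stag1Stag3dKO, Stag2Stag3dKO and Stag3KO, with folds of 5.93, 5.68 and 6.78, and not in Stag1Stag2dKO. The upstream site, at -10.10 kb, was held by 24 lists, among them all 4 CTCF lists with folds of 30.8 to 34.3, GSC STAG2 replicate 1 with 7.86 and STAG3 replicates 2 and 3 with 5.03 and 5.08. At the start itself, STAG3 replicates 2 and 3 had folds of 8.69 and 8.80, above those of 83.4% and 83.9% of the peaks in their lists, and GSC STAG2 replicate 1 had 4.64. No list of another cell type had a peak at this start.

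In all, the 9 windows held 44 merged sites (peaks at most 200 bp apart were joined), of which 43 had a STAG peak. STAG2 was present without STAG1 at 26 of them, both were at 11, and STAG1 without STAG2 was at 2. STAG3 was at 14 sites, of which 9 lay at the starts of the 9 genes, 3 at the start of another gene, and 4 had no STAG1 or STAG2 peak in any cell type. Among the 43 STAG sites, 19 were of 1 cell type, 11 of these sites were found in EpiLC lists only, and 3 were found in all 5 cell types. The EpiLC STAG2 lists were the longest of all, with 84904 and 82994 peaks, and STAG2 had more lists than STAG1. The site counts lack a share over all genes and are a description only.

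**Figure D4:**
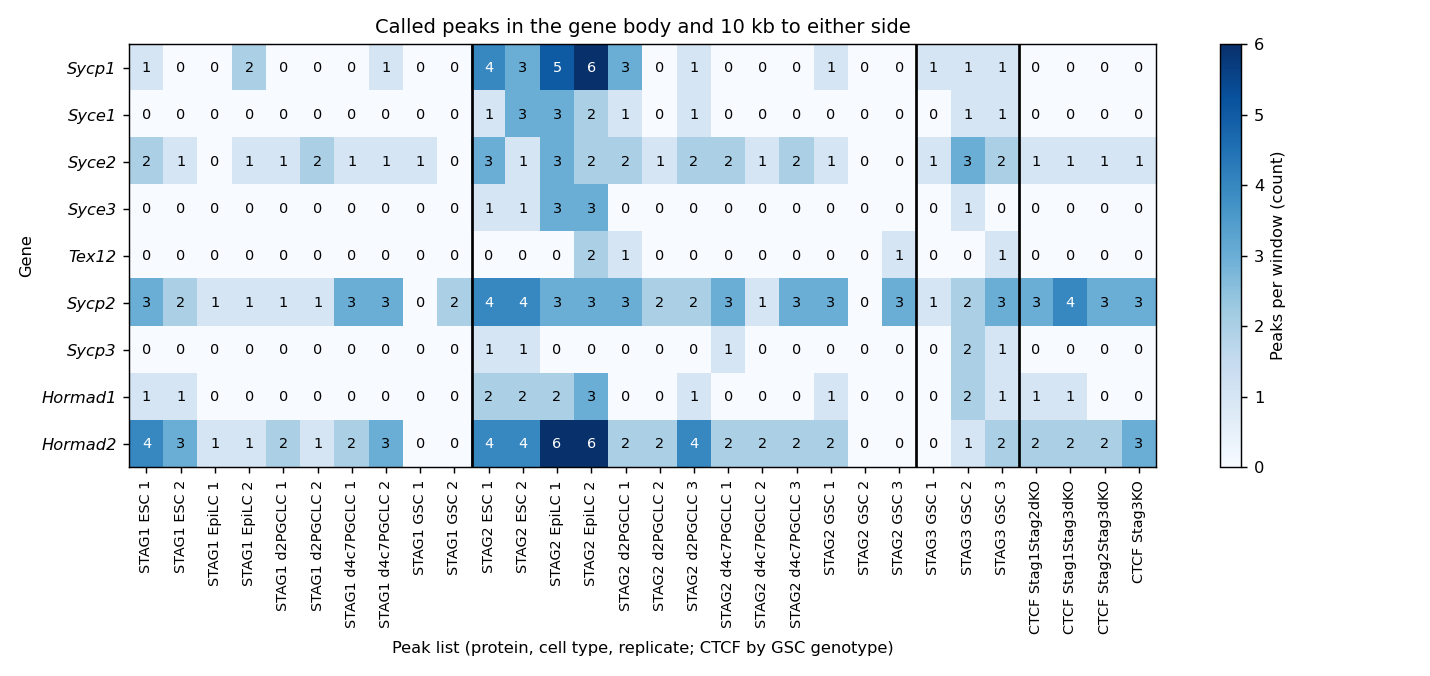
Number of called peaks in the gene body and 10 kb to either side for the 9 genes (rows) in the 30 lists (columns: STAG1, STAG2, STAG3, then CTCF by genotype). Sycp2, Syce2 and Hormad2 carry peaks in most lists; Sycp1, Syce1 and Syce3 carry most of theirs in STAG2 lists of ESC and EpiLC.

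STAG2 lists held more peaks than STAG1 lists in the windows of Sycp1, Sycp2, Syce1 and Hormad1, as they did for most genes. The question of this comparison was how the gene windows differ between cohesin of either kind, with cell type as stratum. Sycp1 had a mean of 2.13 STAG2 and 0.40 STAG1 peaks per list, averaged over cell types, a difference of 1.73 (two-sided exact permutation test over 23 lists, Benjamini-Hochberg adjusted p = 0.0335 over 18922 genes). Syce1 had 1.03 and 0, a difference of 1.03 (exact permutation test, adjusted p = 0.0238). Hormad1 had 1.03 and 0.20, a difference of 0.83 (exact permutation test, adjusted p = 0.0286), and Sycp2 had 2.73 and 1.70, a difference of 1.03 (exact permutation test, adjusted p = 0.0437). Thus 4 of 9 genes were called higher with STAG2, where 61.8% of all tested genes were, and 0 of 9 lower, where 0.0317% were (6 genes). At an unadjusted exact permutation p below 0.05, 5 of 9 were higher and 0 lower, while over all 18922 genes tested 12863 were higher and 9 lower. The members' share was below that of all genes.

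The other 5 genes did not pass this test. Hormad2 had a difference of 1.37 peaks (exact permutation test, adjusted p = 0.0604), Syce3 of 0.80 (0.0787), Syce2 of 0.63 (0.128), Sycp3 of 0.27 (0.198) and Tex12 of 0.33 (0.297). The direction was the same in 4 of 5 cell types at Sycp1, Sycp2 and Hormad1. In d4c7PGCLC, the STAG1 mean was above the STAG2 mean at Sycp1 (0.50 against 0) and Sycp2 (3.00 against 2.33), and Hormad1 had 0 with both. At Syce1 the direction was the same in 3 of 5 cell types, and the others had 0 peaks with either protein. With all lists reduced to their 9641 peaks of highest fold, none of the 9 genes and 517 genes in all were called. No peak of Sycp1, Syce1 or Hormad1 was left in these shortened STAG1 and STAG2 lists, so these genes could not be tested. Sycp2 then had a difference of -0.13 (exact permutation test, adjusted p = 0.889). The Sycp2 call was lost in 17 of the 23 fits that left out 1 list (adjusted p up to 0.117), that of Syce1 in 3 (up to 0.0858), that of Sycp1 in 1 (without ESC STAG1 replicate 2, 0.0501) and that of Hormad1 in 0 (exact permutation tests).

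**Figure D5:**
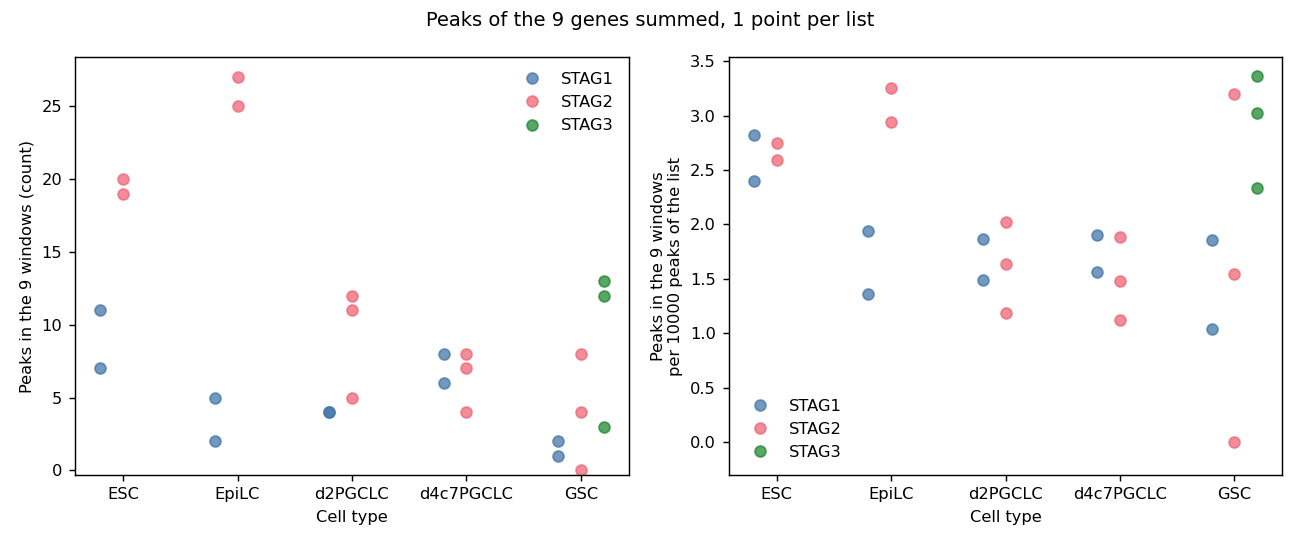
Peaks in the 9 windows summed (left, count) and per 10000 peaks of the list (right), 1 point per list, by cell type (horizontal axis) and STAG protein (colour). EpiLC STAG2 is highest on the left at 25 and 27; per 10000 list peaks, GSC STAG3 lies between 2.34 and 3.37 and GSC STAG2 between 0 and 3.20.

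Summed over the 9 genes, peaks were most numerous in the EpiLC STAG2 lists. EpiLC STAG2 lists held 25 and 27 peaks and GSC STAG1 lists 1 and 2. Per 10000 peaks of the list, EpiLC STAG2 held 2.94 and 3.25, ESC STAG1 2.82 and 2.40, ESC STAG2 2.75 and 2.60, and GSC STAG1 1.04 and 1.86. The 10 lists of d2PGCLC and d4c7PGCLC held 4 to 12 peaks, or 1.12 to 2.03 per 10000. The STAG3 lists held 3, 13 and 12 peaks, or 2.34, 3.37 and 3.02 per 10000, and the GSC STAG2 lists 8, 0 and 4, or 3.20, 0 and 1.54. The STAG3 and STAG2 ranges overlapped on either scale. Across the 26 STAG lists, the pair with the most similar counts was Sycp1 and Syce3 (Pearson r = 0.857 over 26 lists, a description, since all genes share the lists and their lengths).

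In GSC, Hormad2 and Syce2 had fewer STAG1 and STAG2 peaks than in the other cell types. Hormad2 had a mean of 0.33 peaks per GSC list and 2.76 per list elsewhere, averaged over both proteins, a difference of -2.43 (two-sided exact permutation test, 5 lists against 18, adjusted p = 0.00632). Syce2 had 0.42 and 1.51, a difference of -1.10 (exact permutation test, adjusted p = 0.0198). Thus 2 of 9 genes were lower in GSC, where 50.4% of all tested genes were, and 0 of 9 were higher, where 0.106% were. At an unadjusted exact permutation p below 0.05 these counts were also 2 and 0, while over all 18922 genes tested 10963 were lower and 53 higher. For the other 7 genes the differences lay between -1.18 (Sycp1) and 0.02 (Tex12), with adjusted p from 0.212 to 1.00 in exact permutation tests. Lists of 1 cell type are not independent of each other, and with cell types as units p could not fall below 0.2.

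The Hormad2 call held in all 23 fits that left out 1 list, with adjusted p up to 0.0340 in exact permutation tests. The Syce2 call was lost without GSC STAG1 replicate 2 (0.108), GSC STAG2 replicate 2 (0.0717) or GSC STAG2 replicate 3 (0.0619), by exact permutation tests. With lists of equal length, neither gene was called (exact permutation tests, adjusted p = 0.127 for Hormad2 and 0.872 for Syce2), and Hormad2 kept a difference of -0.73 peaks.

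GSC STAG3 windows overlapped those of STAG2 for all 9 genes. STAG3 lists all held more peaks than all STAG2 lists for 0 of 9 genes, where 11.2% of all genes with a peak did, and fewer for 0 of 9, where 0.956% did. Against STAG1 they all held more for 1 of 9, Sycp1, with 1 peak in each STAG3 list and 0 in both STAG1 lists, where 34% of all genes did, and fewer for 0 of 9, where 0.232% did. Without the short STAG3 replicate 1, the count was 3 of 9 against STAG2 (Sycp3, Syce1 and Syce2) and 6 of 9 against STAG1, and the counts over all genes went from 1917 to 7696 and from 5726 to 13463. Against STAG2, without STAG2 replicate 1 it was 2 of 9 (Sycp1 and Syce2) and 2525 over all genes, and without the short STAG2 replicate 2 it was 0 of 9 and 1944. In the main comparisons, 17161 genes had a peak in STAG3 or STAG2 lists and 16827 in STAG3 or STAG1 lists. The number of genes with a peak when 1 list is left out is not given here, so these member counts are read no further. The STAG3 and STAG2 comparisons share the STAG3 lists.

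Means per GSC list had wide SDs. Syce2 had 2.00 ± 1.00 STAG3 peaks, 0.33 ± 0.58 STAG2 peaks (SD, n = 3 each) and 0.50 ± 0.71 STAG1 peaks (SD, n = 2). Hormad1 had 1.00 ± 1.00 with STAG3, 0.33 ± 0.58 with STAG2 (SD, n = 3 each) and 0 with STAG1 (n = 2). Sycp2 had 2.00 ± 1.00 with STAG3, 2.00 ± 1.73 with STAG2 (SD, n = 3 each) and 1.00 ± 1.41 with STAG1 (SD, n = 2). Without the short STAG3 replicate 1, the STAG3 means were 2.50 ± 0.71 for Syce2, 1.50 ± 0.71 for Hormad1 and 2.50 ± 0.71 for Sycp2 (SD, n = 2). Without the short STAG2 replicate 2, the STAG2 means were 0.50 ± 0.71 for Syce2, 0.50 ± 0.71 for Hormad1 and 3.00 ± 0 for Sycp2 (SD, n = 2). The peak names of the STAG3 lists give another working directory than those of STAG1 and STAG2, so a separate calling run cannot be told apart from the antibody.

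CTCF peaks near these genes numbered 6 to 8 per GSC genotype, and 5 of 9 CTCF sites were shared by all 4 genotypes. The 9 windows held 7 CTCF peaks in Stag1Stag2dKO, 8 in Stag1Stag3dKO, 6 in Stag2Stag3dKO and 7 in Stag3KO. Of 9 sites with CTCF in any genotype, 5 were called in all 4: 3 at Sycp2, 1 at Syce2 and 1 at Hormad2. Sycp1, Sycp3, Syce1, Syce3 and Tex12 had no CTCF peak in any genotype. The sites that were not shared were the upstream Sycp2 site (1 genotype), the Hormad2 sites at 19.15 kb (3 genotypes) and 4.31 kb (Stag1Stag2dKO and Stag3KO, folds 5.15 and 4.52), and a Hormad1 site at 7.35 kb (Stag1Stag2dKO and Stag1Stag3dKO). With 1 pooled list per genotype, no difference between genotypes was tested.

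Of the 15 other synapsis genes on a list that holds meiotic cohesin subunits, telomere attachment proteins and recombination regulators, 8 were called higher with STAG2 than STAG1, and none lower. Those with the largest differences were Kash5 and Fkbp6 (2.77 peaks each), Stag3 (1.20), Majin (0.90) and Sun1 (0.73), with adjusted p of 0.0166, 0.0267, 0.0171, 0.00511 and 0.0238 in exact permutation tests. KASH5, MAJIN and SUN1 link meiotic telomeres to the nuclear envelope. Lower in GSC were 9 of 15, led by Fkbp6 (-3.72), Kash5 (-2.68) and Smc1b (-2.41), with adjusted p of 0.00570, 0.0160 and 0.00222 in exact permutation tests, and none was higher. SMC1B is a meiotic cohesin core subunit. Both counts stand beside the same shares of all genes as above, 61.8% and 50.4%.

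At their starts, 10 of the 13 other synapsis genes with a promoter window had STAG3 in at least 1 GSC list and 7 in at least 2: Stag3, Smc1b, Iho1, Trip13, Fkbp6, Terb1 and Sun1. All genes with a window had shares of 55.4% and 42.6%. GSC STAG2 had a start peak in at least 1 list at 2 of these 13 genes, Iho1 and Trip13, against 27.3% of all genes, and in at least 2 lists at 0, against 12.8%. GSC STAG1 had one at 0 of 13 in either list, against 2.95% of all genes. In the window count, Stag3 was the gene among the 15 whose STAG3 lists all lay above the STAG2 lists, with 1.67 ± 0.58 STAG3 peaks and 0 STAG2 peaks (SD, n = 3 each). Of all genes with a peak, 11.2% were so called, so this 1 gene of 15 is not read as a trait of the group. CACGTG was found in the promoter windows of 4 of the 13 genes, against 8.91% of all genes, and GCGGGA in 5, against 28.4%.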

How the data were processed

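From a series of 92 samples, 30 ChIP-seq peak lists were used, and samples behind no list were not analysed here. Per the submitters' processing notes, reads were handled with MACS2 (no version), Bowtie2 2.3.4.1 and SAMtools 1.7, beside Trim Galore 0.4.1 with cutadapt 1.9.1, and deepTools 3.5.0 and bedtools 2.29.2, on the build mm10. Options and control libraries were not given in the sources used here. Deposited lists follow the narrowPeak layout. The authors' fold enrichment at the summit is a linear ratio. The deposited −log10 p-value and −log10 q-value are per peak, and the deposited score is a whole number per peak. The fold and the −log10 q were used to describe, rank or filter peaks within a list, and folds of several lists set side by side are a description only. STAG lists were called per library and CTCF lists on pooled replicates, per the labels and the peak names in the files.

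Genes and promoter windows came from RefSeq tables of GRCm38.p6. The strand came from the promoter table. Peaks overlapping a window by at least 1 bp were counted with Python 3.11.15, numpy 2.4.6 and pandas 2.3.3, and figures were drawn with matplotlib 3.10.9. STAG2 against STAG1 was tested by exact permutation of protein labels within cell type (36000 permutations), and GSC against the other cell types by permutation within protein (12870), two-sided, with Benjamini-Hochberg adjustment over 18922 genes with a peak and a call at adjusted p below 0.05. The tests were checked on simulated counts drawn without the differences in list length of the real lists, so the check does not cover those. GSC STAG3 was compared by non-overlap of counts, and CTCF without a test. No label states that replicates were separate cultures; the p-values therefore reflect the spread between lists, which may be technical.

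The members and lists were chosen with earlier results of these data known. Named genes were all 9 members and, of the 15 other synapsis genes (1 matched through a synonym), at most 5 per comparison with the largest difference among those called. Named sites were at most 3 per gene held by the most lists and those with STAG3 in all 3 lists; other sites were named after their values had been seen. Alternatives changed the window, peak filter, list length, measure, overlap rule and replicates.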

Additional observations from a re-analysis of the deposited data

How the results depend on the processing

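For STAG2 against STAG1, 4 of the 9 genes and 11697 genes in all were called in the main test. Of the 9, those called were 1 with the gene body only (7804 in all), 2 with 2 kb (9059 in all), 7 with 25 kb (14901 in all), 0 with lists of equal length (517 in all) and 0 when each gene counted 0 or 1 (1412 in all). With lists of equal length, only Sycp2, Syce2 and Hormad2 of the 9 had a peak left to test. With the replicate block, the pairing of lists by number, 0 of the 9 and 3396 genes in all were called. Same-numbered lists did not deviate together (13 pairs, correlations -0.12 to 0.06). With 2 or 3 lists per group, this cannot tell whether same-numbered lists shared a culture or batch, so their pairing is unknown. Leaving out 1 list gave 1 to 4 of the 9. Differences that turned sign were Syce2 with the gene body only (-0.40) and with 2 kb (-0.033), and Sycp2 (-0.13) and Hormad2 (-0.033) with lists of equal length. For GSC against other cell types (2 of 9, 9566 in all), the values were 1 and 5517 with the gene body only, 1 and 6650 with 2 kb, 5 and 12970 with 25 kb, 0 and 2768 with lists of equal length, and 1 and 3943 with 0 or 1 per gene. Leaving out 1 list gave 1 to 2. Sycp2 turned to 0.14 with lists of equal length and Tex12, 0.017 in the main test, to -0.15 without GSC STAG2 replicate 3, its range with 1 list left out being -0.15 to 0.11. Of the differences of single genes under all alternatives, 233 of 279 and 257 of 270 neither turned sign nor changed side of the threshold, differences of 0 among them.

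GSC STAG3 above STAG2 held 1 of the 9 genes with lists of equal length and 0 to 3 when 1 list was left out. Over all genes it was 1096 with 0 or 1 per gene and 1944 to 7696 when 1 list was left out. STAG3 below STAG2 was 828 with lists of equal length, 89 with 0 or 1 per gene and 172 to 451 with 1 list left out. STAG3 above STAG1 held 4 of the 9 with 25 kb, 0 (1724 in all) with lists of equal length and 1 to 6 (5773 to 13463 in all) with 1 list left out. STAG3 below STAG1 was 805 with lists of equal length, 122 with the replicate block and 44 to 105 with 1 list left out. In the main GSC comparisons, 17161 genes had a peak in STAG3 or STAG2 lists and 16827 in STAG3 or STAG1 lists. The member counts at equal length against STAG2, at 25 kb against STAG1 and with 1 list left out lack a share of all genes and are read no further. CTCF peaks in Stag1Stag2dKO, Stag1Stag3dKO, Stag2Stag3dKO and Stag3KO were 3, 3, 2 and 3 with the gene body only, 4, 4, 3 and 4 with 2 kb and 16, 18, 16 and 17 with 25 kb. CTCF sites of all 4 genotypes were 1, 2 and 14. For peaks at the start, STAG3 in at least 2 lists was 3 of the 9 by summit, 2 with lists of equal length and 2 to 5 with 1 list left out, and in at least 1 list 5, 3 and 7 to 9. With lists of equal length, STAG2 was 0 by either count, against 2.37% of all genes in at least 2 lists and 3.67% in at least 1. With 1 list left out, STAG2 was 0 to 1 in at least 2 lists and 2 to 3 in at least 1, and STAG1 in at least 1 list was 0 to 1. The start counts with 1 list left out lack a share of all genes and are read no further. The cause of these shifts was not tested. The depth is unknown, so absence of a peak limits nothing further.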
